A study of Homo sapiens with 4 samples.

Results

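Transcripts of 10 subunits of the SWI/SNF chromatin remodelling complexes were examined in OVSAYO cells, a human cell line of ovarian clear cell carcinoma (CCC). The 10 genes were given by name as SMARCA4, SMARCA2, SMARCB1, SMARCC1, SMARCC2, SMARCD1, ARID1A, ARID1B, ARID2 and PBRM1, and every non-control probe whose RefSeq accession maps to one of these symbols was used. This gave 21 probes, out of 41000 non-control probes, for 10 of the 17721 genes that could be given a symbol on the array. All 4 samples were OVSAYO cells transfected with siRNA and cultured for 40 h according to the labels (the study describes a shorter culture), and each RNA was put on 1 Agilent genome-wide array of a single colour. NS-si cells received a negative control siRNA and Sp1-si cells siRNA against Sp1 from another supplier, a pool by the labels although the study's methods describe individual siRNAs, and both were left without CoCl2. NS-si → CoCl2 and Sp1-si → CoCl2 cells received the same siRNAs and were then kept in 0.5 mM CoCl2, a hypoxia-mimicking agent, for 4 h. Since every condition has a single array and no replicate, no test was possible, no p-value is given, and each ratio compares a pair of arrays rather than the conditions.

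SWI/SNF complexes use the energy of ATP to slide or evict nucleosomes and thereby open promoters and enhancers. Each complex holds a single ATPase, either SMARCA4 (BRG1) or SMARCA2 (BRM). In the BAF and PBAF forms it is joined to a core that includes SMARCB1, SMARCC1, SMARCC2 and SMARCD proteins. The BAF form is defined by ARID1A or ARID1B, whereas the PBAF form contains ARID2 and PBRM1, whose bromodomains read acetylated histones. Loss-of-function mutations of ARID1A are a well-known feature of ovarian CCC, and the mutational status of these genes in OVSAYO was not examined here.

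Sp1 binds GC boxes, so the promoters of 4 members are shown, 3 of which were higher after Sp1 silencing (ARID1B, PBRM1 and SMARCA4) and 1 of which was close to its control level there (ARID1A). RefSeq promoter windows on GRCh38.p14 were matched by symbol for 7 of the 10 genes, in 13 windows, with 4 genes having several start sites. SMARCC1, SMARCC2 and ARID2 had no entry. The sequences are the 250 bases before the outermost annotated start, 5′ to 3′ on the strand of the gene. Capitals mark the GC box GGGCGG and the hypoxia response element core ACGTG or GCGTG, each on either strand, and neighbouring matches can overlap or join.
ARID1B, chr6:156775776-156776025, + strand: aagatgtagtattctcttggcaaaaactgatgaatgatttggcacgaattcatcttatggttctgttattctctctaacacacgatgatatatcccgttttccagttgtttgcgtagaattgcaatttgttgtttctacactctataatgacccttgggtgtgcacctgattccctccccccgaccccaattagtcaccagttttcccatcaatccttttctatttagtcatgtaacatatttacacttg
PBRM1, chr3:52685914-52686163, - strand: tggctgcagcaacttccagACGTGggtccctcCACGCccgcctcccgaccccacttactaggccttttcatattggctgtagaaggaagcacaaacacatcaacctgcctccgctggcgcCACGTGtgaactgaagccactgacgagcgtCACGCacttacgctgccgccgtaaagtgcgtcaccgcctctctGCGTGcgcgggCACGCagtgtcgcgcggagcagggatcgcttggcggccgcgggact
SMARCA4, chr19:10960780-10961029, + strand: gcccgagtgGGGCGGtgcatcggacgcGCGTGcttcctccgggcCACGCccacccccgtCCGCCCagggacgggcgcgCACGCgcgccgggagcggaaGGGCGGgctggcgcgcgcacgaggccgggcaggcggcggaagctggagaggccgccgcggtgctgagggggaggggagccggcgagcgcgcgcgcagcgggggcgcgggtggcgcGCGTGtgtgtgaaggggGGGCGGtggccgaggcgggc
ARID1A, chr1:26695765-26696014, + strand: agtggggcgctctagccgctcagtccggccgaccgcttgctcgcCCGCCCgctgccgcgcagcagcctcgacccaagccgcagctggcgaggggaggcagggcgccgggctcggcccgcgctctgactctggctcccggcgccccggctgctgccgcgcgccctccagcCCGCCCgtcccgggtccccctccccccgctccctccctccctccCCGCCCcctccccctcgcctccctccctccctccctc
The windows shown hold 0 GC boxes for ARID1B, 0 for PBRM1, 4 for SMARCA4 and 3 for ARID1A. A second start site inside ARID1B has 4 GC boxes in its window and a second one inside PBRM1 has 6. SMARCA2, also higher after Sp1 silencing without CoCl2, is not shown, and each of its windows holds 0 or 2 GC boxes. Over the 13 windows, 6 hold a GC box and 5 a hypoxia response element core. Of 35116 windows of all genes, 42.6% hold a GC box and 43.2% a hypoxia response element core. A match is a description of letters and does not show that Sp1 was bound there.

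The values below are relative signals, that is, the background-subtracted signal of a probe divided by the signal at the 75th percentile of its array, and ratios are given on the log2 scale of these values. The 75th percentile lay at 1142, 1100, 977 and 1285 on the NS-si, Sp1-si, NS-si → CoCl2 and Sp1-si → CoCl2 arrays, respectively. Leaving this scaling out moved the median log2 ratio over all probes by -0.23 for CoCl2 in NS-si cells, 0.22 for CoCl2 in Sp1-si cells, -0.05 for Sp1 silencing without CoCl2 and 0.40 for Sp1 silencing with CoCl2. Median scaling moved it by 0.11 for both comparisons that use the Sp1-si → CoCl2 array. The 21 member probes were well above background on all 4 arrays, none carried an outlier or saturation flag, and each has 1 spot. The error given as ± is the median SD between spots over the 51 probes with 10 spots nearest in signal, and it does not cover differences between cultures. The SP1 probe with 10 spots had signals of 553 (NS-si), 39.2 (Sp1-si), 429 (NS-si → CoCl2) and 38.7 (Sp1-si → CoCl2) before scaling, and its log2 ratio of silenced to control cells was -3.77 without and -3.87 with CoCl2. The epithelial and CCC markers EPCAM, KRT8, KRT18, CDH1, NAPSA and PAX8 were well above background on all 4 arrays, whereas 4 measured markers of blood, fibroblast and endothelial cells and WT1 were so on none. ESR1, listed with WT1 as usually low in CCC, differed between its probes. A_24_P383478 was well above background on 4 arrays, with signals from 45.0 to 55.8 before scaling. A_23_P309739 was so on 2 arrays and A_24_P325215 on 0.

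Without CoCl2, the ATPases, PBRM1 and ARID1B had higher values on the Sp1-si than on the NS-si array, as did ARID2 by a smaller log2 ratio of 0.23. The log2 ratios of the core subunit probes lay between -0.09 and 0.05, and several of these signs changed with the scaling. Of the 21 member probes, 4 were higher by at least 1.5-fold (background 12.3% of 30234 probes) and 0 were lower by as much (12.6%, or 24.9% in either direction), and 3 of these 4 probes belong to PBRM1. At 2-fold, 1 was higher (4.99%) and 0 were lower (5.11%, or 10.1% in either direction). The median log2 ratio over the 10 genes, each taken by its brightest probe, was 0.14. Over the 21 member probes it was 0.23, beside -0.01 over all probes well above background on all 4 arrays. In the same comparison the epithelial and CCC markers did not move together. NAPSA was lower by log2 ratios of -2.33 and -2.34 on its probes, and CDH1 by -1.55. The KRT18 probes lay between -0.58 and -0.49 and the KRT8 probes at -0.18 and -0.23. EPCAM was higher at 0.18, as were the PAX8 probes at 0.14 and 0.45. The part of these markers in the subunit values was not tested. In RNA of a whole culture, fewer expressing cells and less RNA per cell cannot be told apart.

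ARID1B, the alternative to ARID1A in BAF, showed the largest ratio of all member probes. Its probe (A_23_P70701) had relative signals of 0.172 (NS-si), 0.425 (Sp1-si), 0.154 (NS-si → CoCl2) and 0.399 (Sp1-si → CoCl2). Both Sp1-si arrays were thus well above both NS-si arrays, and CoCl2 made little difference on either side. The log2 ratio of Sp1-si to NS-si was 1.31 ± 0.055 without and 1.37 ± 0.048 with CoCl2, at percentiles 97.3 and 97.2 of all probes. It stayed between 1.06 and 1.34 without CoCl2, and between 1.12 and 1.77 with it, over the 7 alternatives tried. The gene has a single probe, so no second probe can be set beside it.

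PBRM1, the polybromo subunit of PBAF, has 3 probes that gave nearly the same ratio without CoCl2. Relative signals of A_23_P365874 were 0.219 (NS-si), 0.389 (Sp1-si), 0.223 (NS-si → CoCl2) and 0.306 (Sp1-si → CoCl2). For A_23_P218863 they were 0.149, 0.264, 0.157 and 0.229 in the same order, and for A_24_P362850 0.197, 0.323, 0.182 and 0.189. All 3 probes were highest on the Sp1-si array. Without CoCl2 their log2 ratios of Sp1-si to NS-si were 0.83 ± 0.052, 0.82 ± 0.061 and 0.71 ± 0.058. With CoCl2 the first 2 were 0.45 ± 0.046 and 0.55 ± 0.055, whereas A_24_P362850, the only one matched to NM_181042 rather than NM_018313, was at 0.05 ± 0.051 and turned negative under normexp. Under CoCl2 alone the 3 probes were between -0.11 and 0.07 in NS-si cells, and these signs changed with the processing. In Sp1-si cells they were lower by log2 ratios of -0.35, -0.21 and -0.77, the second of which turned positive without scaling.

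SMARCA4 is covered by 3 probes whose signals differ widely but whose ratios to NS-si were close to each other. Its brightest probe (A_23_P39034) had relative signals of 27.5 (NS-si), 38.0 (Sp1-si), 28.1 (NS-si → CoCl2) and 32.6 (Sp1-si → CoCl2). The values for A_23_P39040 were 5.59, 7.52, 5.74 and 7.78, and those for A_24_P212851 were 0.567, 0.753, 0.685 and 1.03. On each probe both Sp1-si arrays exceeded the NS-si array with the same CoCl2 status. The log2 ratios without CoCl2 were 0.47 ± 0.023, 0.43 ± 0.026 and 0.41 ± 0.033, a span over the probes of 0.06. With CoCl2 they were 0.21, 0.44 and 0.58, so that the probes spread over 0.37 there. These ratios were positive under all 7 alternatives, but they reach percentiles of only 81.8 to 84.0 of all probes without CoCl2.

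SMARCA2, the other ATPase, was measured by a moderate and a dim probe. The moderate probe (A_23_P60354) had relative signals of 0.178 (NS-si), 0.244 (Sp1-si), 0.149 (NS-si → CoCl2) and 0.210 (Sp1-si → CoCl2). Its log2 ratio of Sp1-si to NS-si was 0.46 ± 0.061 without and 0.49 ± 0.059 with CoCl2, in the same direction as SMARCA4. For the dim probe (A_23_P252764) the relative signals were 0.0193, 0.0267, 0.0223 and 0.0172, with log2 ratios of 0.47 ± 0.112 without and -0.37 ± 0.130 with CoCl2. The 2 probes therefore disagreed in sign with CoCl2, and the negative value became 0.02 without scaling. Neither ATPase was lower in Sp1-si cells without CoCl2 on any probe.

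**Figure D1:**
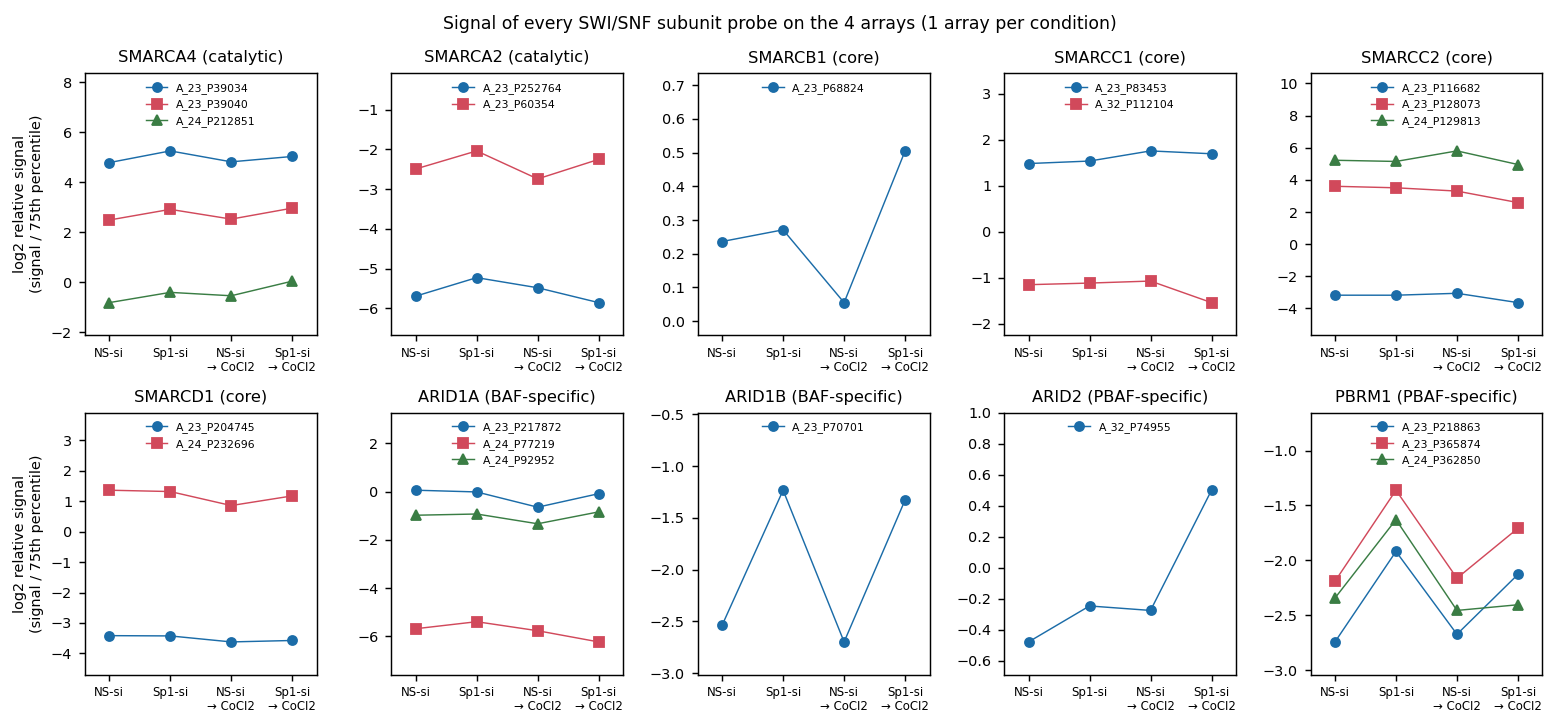
Relative signal of every member probe on the 4 arrays, on a log2 axis with its own range in each panel, with 1 point per array and lines joining the points of a probe. ARID1B, PBRM1 and SMARCA4 are highest on an array of Sp1-silenced cells, and the PBRM1 probes run from 0.149 to 0.389 in relative signal.

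ARID1A, the BAF subunit best known in CCC, differed from its paralogue ARID1B. Relative signals of its brightest probe (A_23_P217872) were 1.04 (NS-si), 0.989 (Sp1-si), 0.638 (NS-si → CoCl2) and 0.941 (Sp1-si → CoCl2), so that the NS-si → CoCl2 array stood below the other 3. A_24_P92952 was likewise lowest on that array, with relative signals of 0.506, 0.525, 0.396 and 0.558. The log2 ratio of NS-si → CoCl2 to NS-si was -0.70 ± 0.038 on the first and -0.35 ± 0.042 on the second probe, and both stayed negative under all 7 alternatives. In Sp1-si cells the CoCl2 ratios were -0.07 ± 0.033 and 0.09 ± 0.039, the first of which turned positive without scaling and with median scaling. The CoCl2 ratio was thus higher with Sp1 silencing by 0.63 ± 0.048 and 0.44 ± 0.056. The dim ARID1A probe (A_24_P77219) was near the lowest signals of the group, with relative signals of 0.0194, 0.0238, 0.0184 and 0.0133, and differed from the others. It gave -0.08 ± 0.122 for CoCl2 after control siRNA and -0.84 ± 0.115 after Sp1 siRNA. Without CoCl2, the ratios of Sp1-si to NS-si were -0.07, 0.05 and 0.29 over the 3 probes, against 1.31 for ARID1B.

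ARID2, the DNA-binding subunit of PBAF, was highest on the array with both treatments. Its probe (A_32_P74955) had relative signals of 0.718 (NS-si), 0.843 (Sp1-si), 0.827 (NS-si → CoCl2) and 1.42 (Sp1-si → CoCl2). The first 3 values lie close together and the last stands above them. The log2 CoCl2 ratio was 0.20 ± 0.037 after control siRNA and 0.75 ± 0.033 after Sp1 siRNA, a difference of 0.54 ± 0.048. The first of these turned to -0.02 without scaling. Sp1 silencing gave 0.23 ± 0.032 without and 0.78 ± 0.035 with CoCl2, and the latter stayed between 0.74 and 1.17 over the alternatives. This is the reverse of the PBRM1 probes, whose CoCl2 ratio with Sp1 silencing minus that without lay between -0.66 and -0.28, although for 2 of the 3 probes that sign turned without scaling.

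The core subunits differed little between the arrays without CoCl2 and more between those with it. SMARCC2, a scaffold of the core, has 3 probes. The brightest (A_24_P129813) had relative signals of 37.3 (NS-si), 35.4 (Sp1-si), 55.8 (NS-si → CoCl2) and 31.0 (Sp1-si → CoCl2). A_23_P128073 gave 12.1, 11.4, 9.87 and 6.01, and A_23_P116682 gave 0.111, 0.111, 0.120 and 0.0805. On all 3 probes the Sp1-si → CoCl2 array was the lowest of the 4. With CoCl2, the log2 ratios of Sp1-si to NS-si were -0.85 ± 0.024, -0.72 ± 0.025 and -0.58 ± 0.079, and they remained negative under every alternative, the one nearest to 0 being -0.18 for the dimmest probe without scaling. The probes did not share a direction for CoCl2 in NS-si cells, with 0.58 on the brightest, -0.30 on the second and 0.12 on the dimmest. The sign on the dimmest probe turned negative without scaling. After Sp1 siRNA the CoCl2 ratios were -0.19 ± 0.026, -0.92 ± 0.027 and -0.46 ± 0.074 in the same order, the first of which turned positive without scaling.

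SMARCC1, the partner and paralogue of SMARCC2, was nearly level on its brighter probe. Relative signals of A_23_P83453 were 2.80 (NS-si), 2.90 (Sp1-si), 3.38 (NS-si → CoCl2) and 3.24 (Sp1-si → CoCl2). Its log2 CoCl2 ratio was 0.27 ± 0.030 after control siRNA and 0.16 ± 0.029 after Sp1 siRNA. The second probe (A_32_P112104) had relative signals of 0.451, 0.463, 0.477 and 0.345 and, as for SMARCC2, was lowest with both treatments. Its log2 ratio of Sp1-si to NS-si was 0.04 ± 0.043 without and -0.47 ± 0.042 with CoCl2, and the latter came to -0.07 without scaling.

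SMARCB1 (INI1), a core subunit whose loss drives rhabdoid tumours, had relative signals of 1.18 (NS-si), 1.21 (Sp1-si), 1.04 (NS-si → CoCl2) and 1.42 (Sp1-si → CoCl2). The log2 ratio of Sp1-si to NS-si on its single probe (A_23_P68824) was 0.03 ± 0.031 without and 0.45 ± 0.033 with CoCl2, the latter positive under all alternatives. SMARCD1 (BAF60A), which links the core to transcription factors, had relative signals of 2.56, 2.49, 1.81 and 2.25 on its brighter probe (A_24_P232696). It was lowest on the NS-si → CoCl2 array. Its log2 CoCl2 ratio was -0.50 ± 0.031 after control siRNA and -0.14 ± 0.031 after Sp1 siRNA, the latter turning positive without scaling. The dimmer probe (A_23_P204745) had relative signals of 0.0937, 0.0932, 0.0813 and 0.0840, with CoCl2 ratios of -0.21 ± 0.074 and -0.15 ± 0.076, the latter positive without scaling. The brighter ARID1A probes, A_23_P217872 and A_24_P92952, were also lowest on the NS-si → CoCl2 array. So were the probes of ARID1B and SMARCB1, A_23_P60354 of SMARCA2 and A_24_P362850 of PBRM1. For the PBRM1 probe, the log2 ratio of Sp1-si → CoCl2 to NS-si → CoCl2 was only 0.05 ± 0.051 and turned negative under normexp. The share of all probes that were lowest on the NS-si → CoCl2 array was not counted.

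The CoCl2 ratios were under 2-fold on every member probe. After control siRNA, 0 of the 21 probes were higher by 1.5-fold (background 11.7%) and 1 was lower (10.2%, or 21.9% in either direction), the ARID1A probe A_23_P217872. After Sp1 siRNA, 1 was higher (10.2%), that of ARID2, and 4 were lower (14.3%, or 24.5% in either direction), which belong to SMARCC2, PBRM1, and the dim probes of ARID1A and SMARCA2. At 2-fold the counts were 0 in each direction, against 4.00% higher and 3.66% lower (7.66% in either direction) with control siRNA and 3.37% higher and 5.70% lower (9.07% in either direction) with Sp1 siRNA. The median log2 CoCl2 ratio over the 10 genes was -0.07 after control siRNA and -0.12 after Sp1 siRNA, and without scaling these became -0.29 and 0.11. Over the 21 member probes the medians were 0.03 and -0.19, beside 0.02 and -0.02 over all probes. Subtracting the CoCl2 ratio of NS-si cells from that of Sp1-si cells gave a median of 0.05 over the genes, which was 0.15 with median scaling and 0.50 without scaling. Over the 21 member probes the median of this difference was -0.12, beside -0.01 over all probes. The values ran from -0.77 for SMARCC2 to 0.63 for ARID1A over the brightest probes. For 1 probe the difference was at least 0.58, that is 1.5-fold (5.52%), and for 5 probes at most -0.58 (12.6%, or 18.1% in either direction). None of these differences reached 2-fold in either direction (1.05% higher, 4.87% lower and 5.91% in either direction).

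In the presence of CoCl2, Sp1-si cells had higher ARID1B and ARID2 and lower SMARCC2 than NS-si cells. By 1.5-fold, 2 of the 21 probes were higher (background 14.5%) and 2 were lower (20.8%, or 35.3% in either direction), and by 2-fold 1 was higher (6.01%) and 0 were lower (9.16%, or 15.2% in either direction). The 4 probes past 1.5-fold became 7 with the authors' value table, 9 with median scaling and 12 without scaling. Of the 10 genes by their brightest probe, 8 had a positive ratio, from 0.21 for SMARCA4 to 1.37 for ARID1B, and 2 a negative one, SMARCC1 at -0.06 and SMARCC2 at -0.85. This count depends on the probe chosen, since the dim probes of SMARCA2 and ARID1A were negative, at -0.37 and -0.46. The SMARCC1 value turned positive without scaling and with median scaling. The median over the 10 genes was 0.45 and that over the 21 member probes 0.32, beside -0.06 over all probes. The median over the genes ranged from 0.27 when all probes of a gene were averaged to 0.85 without scaling.

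**Figure D2:**
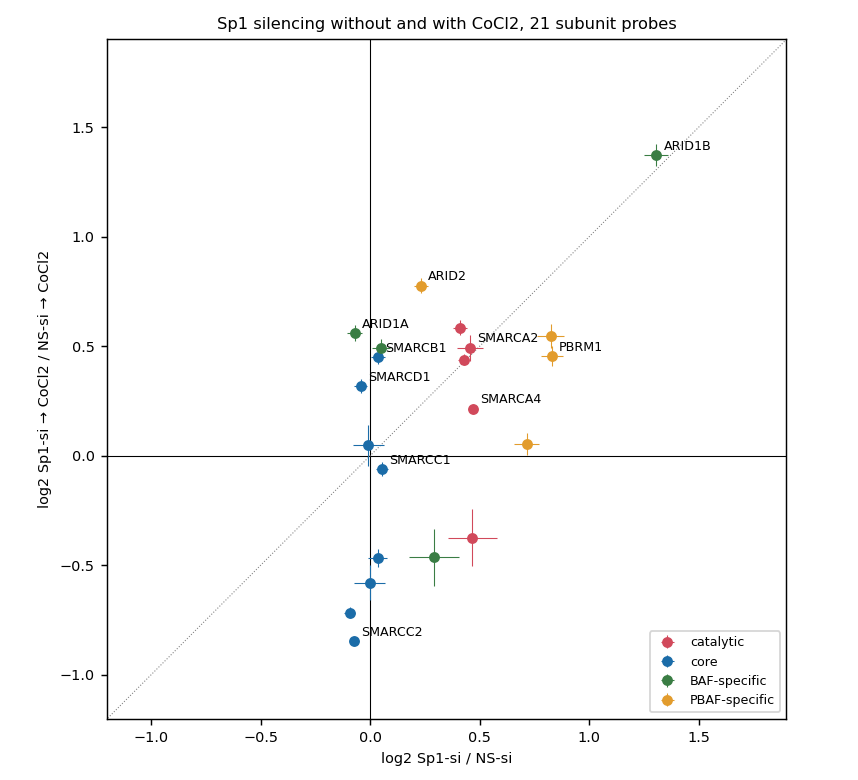
log2 ratio of Sp1-si to NS-si cells without CoCl2 (horizontal axis) and with CoCl2 (vertical axis) for the 21 member probes, coloured by role, with bars for the SD between spots of probes of like signal; names stand at the brightest probe of each gene and the dotted line marks equal ratios. ARID1B lies near that line at 1.31 and 1.37, the PBRM1 probes lie below it, and the core subunits sit near 0 on the horizontal axis while spreading from -0.85 to 0.45 on the vertical axis.

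Where a gene had several probes, their agreement depended on the comparison. For 6 of the 7 genes with several probes, all probes had the same sign for Sp1 silencing without CoCl2, and the median span between the probes of a gene was 0.06. With CoCl2, this held for 5 genes and the median span was 0.41. The CoCl2 ratios had 1 sign for 4 of the 7 genes both in NS-si cells, with a median span of 0.30, and in Sp1-si cells, with one of 0.58. The widest span in these 4 comparisons was that of ARID1A, whose probes differed by 1.02 for Sp1 silencing with CoCl2. The median SD between spots was 0.041 in that comparison, so the probes of a gene lay further apart than this error.

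Other subunits of the complexes were read from a list of 18 genes, 16 of which had a probe, 22 probes in all. Without CoCl2, 8 of these 22 probes were higher by 1.5-fold with Sp1 siRNA (12.3% of all probes) and 0 lower (12.6%), and at 2-fold 3 were higher (4.99%). These were a probe of SS18L1, a paralogue of SS18 found in the neuronal complex, at 1.34, and both probes of BICRAL, a subunit of the non-canonical BAF form, at 1.09 each. The other SS18L1 probe was at 0.85 without CoCl2. For Sp1 silencing with CoCl2 the SS18L1 probes disagreed, at 0.95 for the first and -0.09 for the other. With CoCl2, 8 probes were higher (14.5%) and 1 was lower (20.8%) by 1.5-fold, and SMARCD3, a paralogue of SMARCD1, reached 1.37 after 0.95 without CoCl2. One SS18 probe (A_24_P384851) was the only one whose CoCl2 ratio was past 2-fold, at 1.17 after control siRNA and 1.04 after Sp1 siRNA, while the other SS18 probe gave 0.28 and 0.42. The median over the 16 genes was 0.25 for Sp1 silencing without and 0.41 with CoCl2, beside 0.14 and 0.45 for the 10 members. SMARCD2 and DPF3 had no matched probe.

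The ATPases of other remodellers, a list of 17 genes of which 16 had probes well above background on all 4 arrays, 27 in all, gave medians over these 16 genes of 0.05 without and 0.09 with CoCl2 for Sp1 silencing. Of their probes, 5 were higher by 1.5-fold without CoCl2 (12.3% of all probes) and 0 were lower (12.6%), beside 4 of 21 for the members. With CoCl2, 6 were higher (14.5%) and 3 were lower (20.8%). Those past 2-fold without CoCl2 were both CHD6 probes at 1.12 and 1.21 and an ATRX probe at 1.16, which was at 1.07 with CoCl2. Under CoCl2, a CHD2 probe was at 1.12 in NS-si cells, and one EP400 probe (A_24_P298939) at -1.69 in Sp1-si cells, where the other EP400 probes gave 0.02 and 0.20. The same EP400 probe was at -1.43 for Sp1 silencing with CoCl2. Both lists were read at the 75th percentile scaling alone, and the difference between the lists was not tested, since each condition has 1 array.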

How the data were processed

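RNA of OVSAYO cells was measured on 4 Agilent arrays of design 014850, 1 per condition. The intensity of each spot was deposited by the authors as Agilent Feature Extraction 10.5.1.1 wrote it, after background subtraction and detrending and without normalization between arrays. The authors' deposited value table equals this intensity times 1 constant per array. Here, outlier spots were left out, log2 signals of non-control spots were scaled by the 75th percentile of the array, and a probe took the mean of its spots. A probe was well above background when at least 50% of its spots were. Symbols came from RefSeq accessions (GRCh38.p14 table), which named 26222 of 41000 probes, and since the array annotation is on hg18 no probe coordinates are given. Where 1 probe stands for a gene, it is the brightest on average over the arrays. The genes named are the 10 members, SP1, the markers and, from both lists of other remodeller genes, those past 2-fold, a rule fixed with the design. One marker of that rule is not reported here. The members and lists were chosen with earlier results of these data known. Depth does not apply to arrays, whose number limits the precision. The counting code was checked on simulated ratios. Alternatives were other scalings, the authors' table, normexp with an offset of 50 applied to median signals (added once the data had been seen), retention of outlier spots, averaging of all probes and no filter. Python 3.11.15, numpy 2.4.6, pandas 2.3.3, matplotlib 3.10.9, R 4.3.3 and limma 3.58.1 were used.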

Additional observations from a re-analysis of the deposited data

How the results depend on the processing

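No paired analysis was possible because each condition has 1 array. Of 120 summary values recomputed under alternatives, 92 stayed within the spread between spots or, for counts, within 1.5 times. Of the 5 values for each of the 21 member probes, 72 had the same sign under all 7 alternatives, as did all 20 past 1.5-fold, 9 of which were past it every time. Normexp on mean signals was not run, since the files used here hold median signals. The cause of the shifts below was not tested, apart from the lack of scaling itself.

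Without scaling, the median over the 10 genes was -0.29 for CoCl2 in NS-si cells, 0.11 for CoCl2 in Sp1-si cells, 0.089 and 0.85 for Sp1 silencing without and with CoCl2, and 0.50 for the difference of the CoCl2 ratios. Probes past 1.5-fold then numbered 2 for CoCl2 in NS-si cells and 12 for Sp1 silencing with CoCl2, and those past 2-fold 2 for Sp1 silencing with CoCl2 and 1 for the difference. Median scaling gave medians of -0.013 for CoCl2 in Sp1-si cells, 0.56 for Sp1 silencing with CoCl2 and 0.15 for the difference, with 2 probes past 1.5-fold for CoCl2 in NS-si cells and 9 for Sp1 silencing with CoCl2. Quantile normalization gave medians of -0.11 for CoCl2 in NS-si cells and 0.10 for the difference. The 75th percentile taken from detected probes alone gave -0.12 for CoCl2 in NS-si cells. The authors' value table gave -0.14 and -0.17 for CoCl2 in NS-si and Sp1-si cells and 0.18 and 0.51 for Sp1 silencing without and with CoCl2, with 7 probes past 1.5-fold in the last. Normexp, chosen after the data were seen, gave medians of -0.10 for CoCl2 in NS-si cells and 0.36 for Sp1 silencing with CoCl2, and 3 probes past 1.5-fold both for CoCl2 in Sp1-si cells and for the difference. Averaging all probes of a gene gave -0.012 for CoCl2 in NS-si cells and 0.27 for Sp1 silencing with CoCl2.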
